A study of Mus musculus with 4 samples.

Results

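The regions described here are 13705 bins of 1 kb that lay more than 5 kb from either end of every gene and still gathered 20 or more transposase-cut fragments from nuclei of mouse thymic fat. They are 36.8% of the 37279 bins of chr1 to chr19 that reached that count, and the other 23574 bins lay within 5 kb of a gene end. Members were chosen by their pooled count over 317 nuclei that carried a cell type label, so the height of that pooled count is a description and supports nothing. Differences between labels, levels in unlabelled barcodes, fragment length and promoter sequence were not part of the choice. Even so, the choice favours bins open in the adipocyte labels, because the Immune nuclei gave 12.8% of the labelled fragments. Distance to gene ends was part of the choice, so it shapes where members lie and how many hold a promoter window. The lower limit was not a natural gap: 903 members held exactly 20 fragments, and 982 bins equally far from gene ends held 19 and were left out. The limit on distance was no gap either, since 1058 members lay 5 to 6 kb from a gene end while 1222 bins above the fragment minimum lay 4 to 5 kb from one.

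In an assay for transposase-accessible chromatin, a hyperactive transposase cuts and tags DNA that is not covered by nucleosomes, so the fragments pile up at active promoters and enhancers. Enhancers are stretches of regulatory DNA that bind transcription factors and act on promoters over a distance. They are usually open in fewer cell types than promoters are, and many promoters of housekeeping genes lie in CpG islands that are open in nearly every cell. In fat cells, open distal elements are known to be bound by PPARγ, the receptor that drives fat cell formation, and by C/EBP factors, while EBF factors are linked to both fat cells and B cells.

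The chromatin came from 1 library made from 16 pooled thymi of 6-month-old female C57/BL6 mice, wild type, otherwise untreated and kept on standard chow. The thymic capsule was cleaned and digested with DNase I and collagenase II, the floating adipocyte layer was kept, and its nuclei went into a joint RNA and ATAC assay. The groups are cell type labels inside that library: thyAD I (146 nuclei, clusters 1 and 3), thyAD II (140 nuclei, clusters 0 and 4) and Immune (31 nuclei, cluster 2). A second library of thymic RNA, from 6 pooled thymi of 4-month-old male mice, was used only for the RNA of nearby genes. With 1 pool of animals there is no replicate, so no difference below has a test across animals, and every interval covers counting error only. The labels cover whole clusters that may have been drawn from the same fragments, so differences between them describe the annotation.

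Levels are given as FPM, the number of fragments with their midpoint in a bin for every 1000000 fragments of that group, and the summed totals were 1646902 fragments for thyAD I, 2189613 for thyAD II and 561387 for Immune. Median depth per nucleus was 10106, 15057 and 16036 fragments. The labels were checked on the gene bodies of marker genes. Adipocyte markers summed to 1037 FPM in thyAD I, 945 in thyAD II and 654 in Immune, against 231 in 4782 deep barcodes of the library that had no row in the label table used here. T cell markers summed to 131 and 100 FPM in the adipocyte labels, 460 in Immune and 904 in those other barcodes. The Immune nuclei therefore carried both marker sets, and what share of their fragments came from fat cell chromatin was not tested. No doublet caller was run here, and the labels used here do not say how doublets were treated. B cell markers were higher in the adipocyte labels (570 and 587 FPM) than in Immune (344), and that list holds Ebf1, which fat cells use too.

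Of the 13705 members, 455 (3.32%) held the midpoint of the 300-base promoter window of a RefSeq gene start, and 444 of these belonged to the gene that the bin lay in. Most are internal promoters: gene starts that sit inside a longer model of the same gene, far from its outer ends. The 250 bases before the start are printed for 9 of them (RefSeq, GRCm38.p6, 5′ to 3′ along the gene's own strand), chosen after the values were seen. Some windows run past the end of their bin, and every level given below is that of the whole 1 kb bin, not of the printed bases. The first 5 windows belong to genes of the adipocyte identity list, with motif letters in capitals. Both strands were searched for 12 motifs: AP-1 (TGANTCA), C/EBP (TTGCNNAA), GATA factor (AGATAAG), RUNX (TGTGGTT), ETS (CCGGAAG), TCF/LEF (CTTTGAT), NF1, the nuclear receptor repeat DR1, CRE (TGACGTCA), EBF, E-box (CACGTG) and the promoter box TATAAA. The matches in these 5 windows were RUNX in Lipe and a pair of C/EBP in Pparg.
Lipe, chr7:25390113-25390362, minus strand: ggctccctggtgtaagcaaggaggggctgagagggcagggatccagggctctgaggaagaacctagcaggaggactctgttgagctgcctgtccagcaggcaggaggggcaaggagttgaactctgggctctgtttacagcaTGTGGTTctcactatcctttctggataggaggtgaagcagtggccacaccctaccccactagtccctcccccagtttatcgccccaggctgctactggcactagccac
Pparg, chr6:115421816-115422065, plus strand: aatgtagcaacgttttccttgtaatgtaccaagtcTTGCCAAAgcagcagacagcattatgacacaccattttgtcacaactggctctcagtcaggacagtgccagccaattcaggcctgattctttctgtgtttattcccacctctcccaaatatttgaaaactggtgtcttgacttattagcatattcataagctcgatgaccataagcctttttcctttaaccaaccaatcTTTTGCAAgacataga
Cd36, chr5:17835897-17836146, minus strand: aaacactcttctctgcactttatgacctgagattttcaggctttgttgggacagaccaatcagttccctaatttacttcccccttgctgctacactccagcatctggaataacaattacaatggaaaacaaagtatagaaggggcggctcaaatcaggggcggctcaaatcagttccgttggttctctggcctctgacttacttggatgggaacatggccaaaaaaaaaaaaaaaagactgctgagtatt
Acsl1, chr8:46490716-46490965, plus strand: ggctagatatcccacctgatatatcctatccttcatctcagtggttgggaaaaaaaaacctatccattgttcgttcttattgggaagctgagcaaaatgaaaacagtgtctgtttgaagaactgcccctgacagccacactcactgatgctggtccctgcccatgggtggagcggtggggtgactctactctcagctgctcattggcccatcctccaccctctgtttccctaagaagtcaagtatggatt
Acvr1c, chr2:58324808-58325057, minus strand: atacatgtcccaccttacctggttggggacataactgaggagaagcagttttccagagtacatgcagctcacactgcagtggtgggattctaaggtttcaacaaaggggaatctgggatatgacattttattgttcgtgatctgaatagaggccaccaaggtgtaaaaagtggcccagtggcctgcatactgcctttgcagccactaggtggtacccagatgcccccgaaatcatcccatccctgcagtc
The other 4 are shown for contrast, with CG dinucleotides in capitals: Hdac4 has the most fragments among promoter members, and Tjp1, Akt2 and Pitpnm2 have the interval bound farthest towards thyAD II, thyAD I and Immune (the first pair among windows whose bin held 30 or more fragments).
Hdac4, chr1:92180342-92180591, minus strand: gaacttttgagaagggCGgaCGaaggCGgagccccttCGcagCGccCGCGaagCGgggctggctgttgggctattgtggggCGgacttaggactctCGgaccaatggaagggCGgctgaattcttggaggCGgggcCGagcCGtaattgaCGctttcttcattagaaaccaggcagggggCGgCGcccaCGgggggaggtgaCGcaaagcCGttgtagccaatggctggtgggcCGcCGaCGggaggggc
Tjp1, chr7:65371245-65371494, minus strand: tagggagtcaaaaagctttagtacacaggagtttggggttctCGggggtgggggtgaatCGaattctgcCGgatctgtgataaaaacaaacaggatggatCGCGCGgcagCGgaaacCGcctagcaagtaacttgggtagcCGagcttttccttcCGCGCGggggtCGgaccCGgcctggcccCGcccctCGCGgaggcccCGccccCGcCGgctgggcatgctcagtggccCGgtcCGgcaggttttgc
Akt2, chr7:27607086-27607335, plus strand: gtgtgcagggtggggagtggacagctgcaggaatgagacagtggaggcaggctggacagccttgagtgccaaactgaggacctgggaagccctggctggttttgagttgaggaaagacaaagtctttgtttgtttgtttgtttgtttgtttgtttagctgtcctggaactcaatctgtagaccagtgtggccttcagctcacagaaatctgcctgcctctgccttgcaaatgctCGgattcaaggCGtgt
Pitpnm2, chr5:124187183-124187432, minus strand: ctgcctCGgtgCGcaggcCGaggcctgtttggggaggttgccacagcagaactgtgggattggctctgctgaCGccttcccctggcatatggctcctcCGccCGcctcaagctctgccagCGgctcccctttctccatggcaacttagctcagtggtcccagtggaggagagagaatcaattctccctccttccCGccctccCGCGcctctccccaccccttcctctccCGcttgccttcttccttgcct

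The bins at these internal promoters of fat cell genes held fragments in every label and stood lower in the other barcodes. Labelled fragments chose these bins, so the difference from the other barcodes is a description. The Lipe bin, upstream of hormone-sensitive lipase, stood at 67.4 FPM in thyAD I, 51.6 in thyAD II and 53.4 in Immune, against 4.39 in the other barcodes, a 13.2-fold difference. The Pparg bin, 60.6 kb inside the gene and just before the start of the transcript known as Pparg2, stood at 38.3, 26 and 19.6 FPM against 2.0. Its log2 ratio of thyAD II over thyAD I was -0.55. The start itself lies in the next bin, a separate member with 25 fragments and a ratio of 0.39. The bin of Cd36, a fatty acid transporter, stood at 18.8, 24.7 and 8.91 FPM against 1.33. That of Acsl1, which activates long-chain fatty acids, stood at 11.5, 9.59 and 8.91 FPM against 0.833. The bin of Acvr1c, an activin-type receptor of fat cells, had the smallest difference of the 5, 2.59-fold, with 8.50, 5.94 and 7.13 FPM against 2.76. The Immune levels of Cd36, Acsl1 and Acvr1c rest on 5, 5 and 4 fragments, close to the floor of 3 used below. The 5 printed windows held 1 to 3 CG dinucleotides each. The Hdac4 window, by contrast, held 23, and its bin was as open in the other barcodes (84.3 FPM) as in thyAD I (78.3), thyAD II (63.0) and Immune (71.3). Hdac4 is a histone deacetylase present in many tissues.

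Among the labels, the Tjp1 bin was higher in thyAD II, with 59 fragments (26.9 FPM) against 22 in thyAD I (13.4 FPM), a log2 ratio of 0.99 with a 95% interval from 0.28 to 1.79. Tjp1 encodes a tight junction scaffold. The Akt2 bin was higher in thyAD I, with 37 fragments (22.5 FPM) against 17 (7.76 FPM), a log2 ratio of -1.51 (-2.45 to -0.67). Akt2 is the kinase that carries the insulin signal in fat cells. The Pitpnm2 bin, at a phosphatidylinositol transfer protein gene, held 10 fragments in Immune (17.8 FPM) against 6 in thyAD I and 5 in thyAD II, a log2 ratio of 2.64 (1.24 to 4.01), and stood at 20.2 FPM in the other barcodes.

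Promoter members fell into classes by their level in the other barcodes, a split added after the data were seen. In 150 of the 455 (33%) the labelled nuclei were 2-fold or more above the other barcodes, in 276 (60.7%) the levels were within 2-fold, and in 29 (6.37%) the other barcodes were higher. The first class had a median of 7 CG dinucleotides and 56.4% GC per window, against 16 and 61.6% in the class within 2-fold. The C/EBP motif, searched on both strands, was in 14.7% of the first class and in 7.97% of the second, while the ETS motif CCGGAAG was in 2.67% and 10.1%. Over all 455 windows the C/EBP motif was in 11.4%, against 8.20% of the 8708 windows at gene ends and 10.9% of the 31365 windows of all genes. The ETS motif was in 10.5%, 18.9% and 9.0%, and the RUNX motif in 2.86%, 3.25% and 5.32%. The AP-1 motif was in 6.81%, 4.10% and 7.85%, the E-box in 7.47%, 11.0% and 7.14%, the motif TATAAA in 5.05%, 6.30% and 13.6% and the CRE in 2.42%, 3.49% and 1.83%. GATA factor letters were in 0.659%, 1.39% and 3.04%, TCF/LEF in 2.42%, 2.23% and 3.76% and EBF in 0.879%, 0.896% and 0.921%, and the long NF1 and DR1 letters were in 0 of the 455 and in 12 each of all 31365 windows. A match is only a match of letters. Within the first class 44.7% of bins were 2-fold or more lower in Immune than in the adipocyte labels, against 6.52% of the class within 2-fold and 35.8% of all members. The classes were split on labelled fragments, most of them from the adipocyte labels, which enter this ratio too. Their median depth also differed, at 45 and 77 fragments per bin, so nothing is read from the difference.

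The members were then set beside the rest of the library, as a description only, since every member was chosen by its fragments in the labelled nuclei. They held 12.5% of all labelled fragments and 4.35% of those of the other barcodes, a 2.87-fold difference, whereas the bins near gene ends held 35.0% and 33.1%, a 1.06-fold difference. Both sets met the same fragment minimum, which by itself raises the labelled side, and nothing is read from the size of either ratio. Per bin, 11203 of 13705 members (81.7%) were 2-fold or more higher in labelled nuclei, against 53.2% of all bins and 36.5% near gene ends, and 280 (2.04%) were 2-fold or more higher in the other barcodes, against 3.54% of all bins. The median log2 ratio was 3.19 for the members and 0.20 near gene ends. Members without a promoter window stood at 3.25-fold over their sum and the 455 with one at 1.04-fold. The 1722 members more than 50 kb from any gene end stood at 4.06-fold and the 462 beyond 100 kb at 6.05-fold, while the 155 of these that lay outside genes stood at 4.20-fold. Against barcodes with fewer than 100 fragments, the members were 3.59-fold and the gene ends 1.47-fold higher in labelled nuclei. The other barcodes carry T cell markers at 904 FPM, as given above, and may include nuclei of the same types that are not analysed here.

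**Figure D1:**
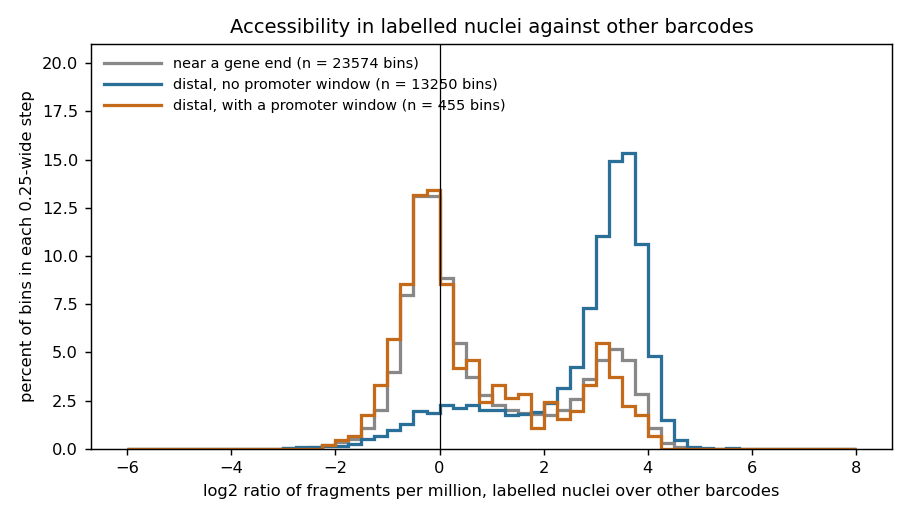
Distribution of the log2 ratio of FPM, labelled nuclei over other barcodes (x axis, in steps of 0.25), as the percentage of bins in each step (y axis) for bins near a gene end, members without a promoter window and members with one. Members without a promoter window pile up between 3 and 4, while members with a window and bins near gene ends peak just below 0 and have a smaller peak above 3.

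The share per nucleus rests on the same fragments. The share of a nucleus's fragments that fell in the members ran from 3.83% through a median of 14.4% to 18.8% in thyAD I, and from 6.55% through 13.0% to 18.4% in thyAD II. In the 31 Immune nuclei it ran from 3.42% through 8.67% to 12.1%. In the 4782 other barcodes the median was 4.19%, with the middle 50% of barcodes between 3.88% and 4.46% and a highest value of 17.7%. The ranges of the labels overlapped each other and that of the other barcodes, the lowest thyAD I and Immune nuclei lay below the median of the other barcodes, and the highest Immune nucleus lay below the medians of both adipocyte labels. Nuclei of 1 library are not replicates, and the members were chosen on the pooled counts of these nuclei.

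**Figure D2:**
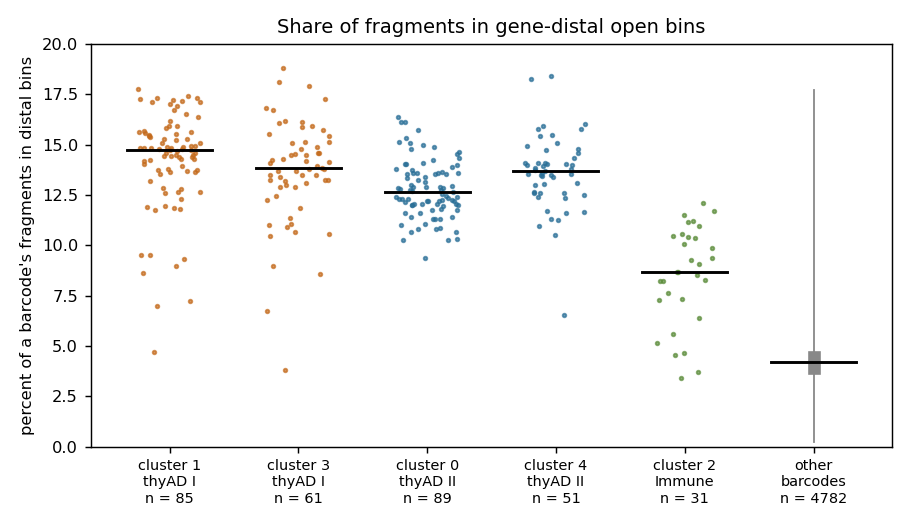
Percentage of each nucleus's fragments that fell in the gene-distal members (y axis) by cluster and label (x axis), with 1 point per nucleus and a bar at the median; for the other barcodes the box spans the middle 50% and the line the full range. The clusters of thyAD I and thyAD II lie above cluster 2 (Immune, median 8.67%) by their medians, and the other barcodes have a median of 4.19%.

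Being far from gene ends did not mean being outside genes. Of the members, 9187 (67.0%) had their centre inside a gene, 8412 (61.4%) inside a protein-coding gene, and 4518 (33%) outside all genes. Their median distance to the nearest gene end was 15.6 kb and the largest 522 kb. Members inside and outside genes were alike in the labelled over background comparison, at 3.55-fold and 3.67-fold. Fragments shorter than the DNA wrapped around a nucleosome, the mark of nucleosome-free DNA, made up 73.2% of the members' fragments, 74.1% of those near gene ends and 58.8% of all labelled fragments. Each member was seen in many nuclei, from 14 to 232 with a median of 29, so none was made by a single nucleus. Most members stood alone: neighbours formed 11856 runs, and 75.1% of members had no adjacent member. The longest run was 7 bins, chr16:23976001-23983000, inside Bcl6, the transcriptional repressor known from germinal-centre B cells and also active in fat tissue. It held 265 fragments, at 61.9 FPM in thyAD I, 65.3 in thyAD II and 35.6 in Immune, against 16.1 in the other barcodes.

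Genes with the most members inside them, a ranking added after the data were seen, covered a wide range of roles. Of 3344 genes that held a member, 1619 held 1. Gse1 held the most, 32 members over 353 kb, which summed to 363 FPM in thyAD I, 284 in thyAD II, 216 in Immune and 138 in the other barcodes. Tns1, which links the cytoskeleton to adhesion sites, held 26 members, and Sh3pxd2a, a scaffold of podosomes, held 24. Dlc1, a regulator of the actin cytoskeleton, held 20 members at 197 and 202 FPM in the adipocyte labels, 116 in Immune and 13.6 in the other barcodes. Long genes can hold more bins: Pde4d, a cyclic AMP phosphodiesterase gene of 1302 kb, held 19, or 1.46 per 100 kb, against 12.1 per 100 kb in Tns1.

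The 6 members with the most fragments also had high levels in the other barcodes. No list of repeat or high-signal regions was applied to the bins, and whether these levels reflect open chromatin was not tested. Deep members as a set were higher in labelled nuclei, at 1.64-fold over the sum of the 466 with 100 or more fragments. The top member, chr2:98666001-98667000, lies outside genes, 36.1 kb from the nearest gene end, with Lrrc4c as the nearest protein-coding gene. It stood at 121 FPM in thyAD I, 197 in thyAD II and 139 in Immune, but at 119 in the other barcodes and 264 in barcodes with fewer than 100 fragments. Of its fragments 26% were short, against 73.2% over all members. The adjacent bin, also highest in those small barcodes at 192 FPM, stood at 77.7, 126 and 81.9 FPM in the labels, with 56% short fragments. The bin chr13:9011001-9012000, 9.55 kb from a gene end near Gtpbp4, stood at 98.4, 52.5 and 187 FPM and at 213 in the other barcodes. A member inside Chd9, which encodes a chromatin remodeller (chr8:90908001-90909000, 80.2 kb from a gene end), was even, at 75.3, 72.2 and 57.0 FPM and 54.4 in the other barcodes. The remaining 2 of the top 6, chr1:195241001-195242000 near Cr2 and chr19:61266001-61267000 near Csf2ra, held 322 and 313 fragments and were higher in the other barcodes (99.4 and 104 FPM) than in any label. In all, 782 members (5.71%) had a higher level in the small barcodes than in labelled nuclei. The same share over all bins is not given here, so nothing particular to the members is read from it.

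Between the adipocyte labels the members differed little as a set and strongly at single bins. Of 12210 members with 20 or more fragments in both labels together, 815 (6.67%) were 2-fold or more higher in thyAD II, against 5.09% of all bins and 4.19% near gene ends. In the other direction 785 (6.43%) were higher in thyAD I, against 4.34% of all bins and 3.17% near gene ends. With a minimum of 50 fragments the shares were 0.926% and 2.26%, and with 5 fragments added 1.65% and 3.8%. The median log2 ratio of thyAD II over thyAD I was -0.03, with the middle 50% of members between -0.41 and 0.39. Position made little difference, since 7.11% of members outside genes and 6.46% of those inside were past 2-fold towards thyAD II.

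The clearest thyAD II member was chr13:94154001-94155000 inside Lhfpl2, with 29 fragments in thyAD II (13.2 FPM), 1 in thyAD I (0.607 FPM) and 1 in Immune. Its log2 ratio was 3.89, with a 95% interval from 1.85 to 9.80. The next was chr5:118365001-118366000, whose nearest protein-coding gene Spring1 encodes a regulator of the sterol-sensing SREBP pathway, with 25 fragments against 1 and a log2 ratio of 3.68. A bin inside Mcf2l, a guanine nucleotide exchange factor gene (chr8:12896001-12897000), held 24 against 1. A bin near Slc38a1, a glutamine transporter gene, held 21 against 1, and a bin near Slc13a5, the citrate importer gene, held 30 against 3. A bin inside Ano10 held the most thyAD II fragments of these 10 members, 35 against 4 (15.98 against 2.43 FPM). The other 4 lay inside Scfd2 (30 against 2), Igsf21 (20 against 1) and Med16 (19 against 1) and near Cdrt4 (20 against 1). All 10 were low in the other barcodes, between 0.333 and 2.97 FPM.

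The 10 members named for thyAD I held 19 to 44 fragments there. The clearest by its interval was chr7:49484001-49485000 inside Nav2, with 23 fragments in thyAD I (13.97 FPM), 2 in thyAD II (0.913 FPM) and 0 in Immune, a log2 ratio of -3.64 (-7.06 to -1.92). A bin inside Adra1a, an α1-adrenergic receptor gene (chr14:66748001-66749000), held 27 against 5, a log2 ratio of -2.73. A bin 11.9 kb from Idh2, the mitochondrial isocitrate dehydrogenase gene, held 20 against 3. A bin inside Slc24a3, a sodium, calcium and potassium exchanger gene (chr2:145356001-145357000), held 19 against 2. The bin with the most fragments of the 10 was chr14:67626001-67627000, 46.7 kb from its nearest gene Cdca2, with 44 against 11 (26.7 against 5.02 FPM) and a log2 ratio of -2.36 (-3.51 to -1.43). Others were near Stt3b (22 against 2), inside Dock9 (26 against 4) and Adamtsl1 (20 against 3), and near Parn (20 against 3). These 10 stood between 0.416 and 0.680 FPM in the other barcodes.

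**Figure D3:**
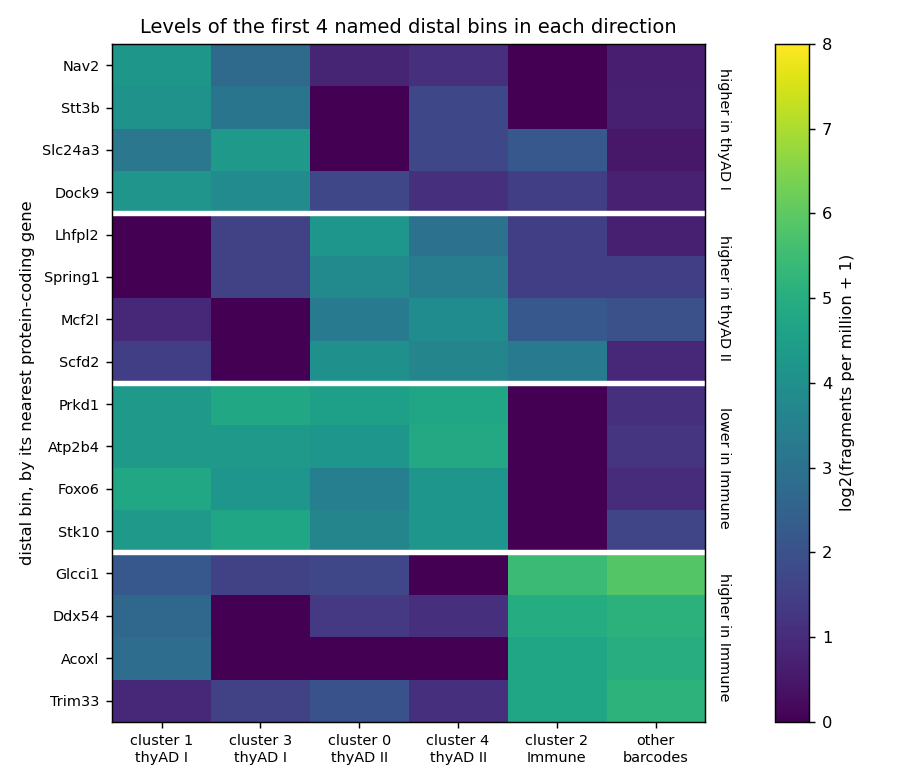
Heat map of log2(FPM + 1) for the first 4 members named in each direction (16 rows, by nearest protein-coding gene) in each cluster and in the other barcodes (columns), grouped by the direction each was named for. Rows named for thyAD I or thyAD II and rows lower in Immune are dark in the other barcodes, while the 4 rows higher in Immune are bright there too.

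How often a member passed 2-fold followed its depth. Among members with 20 to 29 fragments in the adipocyte labels, 10.2% passed towards thyAD II and 8.85% towards thyAD I, against 9.73% and 7.0% of gene-end bins of the same depth. At 30 to 49 fragments the shares were 5.40% and 5.64%, against 4.58% and 3.21%. At 50 to 99 fragments they were 1.07% and 2.47%, against 0.815% and 1.10%. Of 335 members with 100 or more, 0 passed towards thyAD II and 3 towards thyAD I. At matched depth the members' shares thus lay close to those of gene ends towards thyAD II and above them towards thyAD I. Of the 815 members past 2-fold towards thyAD II 570 came from the shallowest stratum, and of the 785 towards thyAD I 497 did.

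The members' ratios to the other barcodes and to Immune changed little up to 99 fragments and were smaller above. The strata were cut on fragments in the adipocyte labels, which enter both ratios and most of the choice of members. These values are therefore a description only. At 50 to 99 fragments the members' median log2 ratio of labelled nuclei over other barcodes was 3.48, against -0.01 for gene ends. In the same stratum 37.8% of members were 2-fold or more lower in Immune, against 13.8% of gene ends. From the shallowest to the deepest stratum the members' median ratio to the other barcodes went from 3.08 to 1.98, that of gene ends from 1.18 to -0.10, and the members' share lower in Immune went from 42.2% to 20%.

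**Figure D4:**
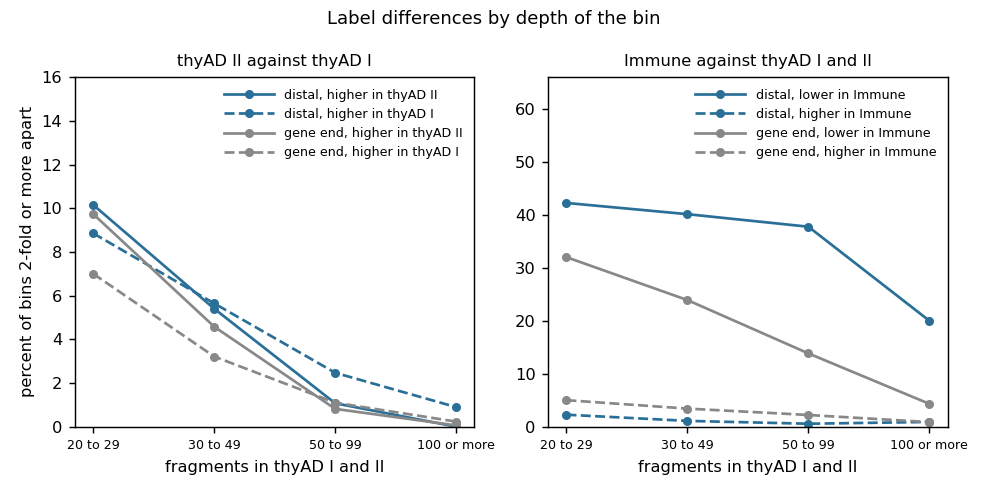
Percentage of bins 2-fold or more apart (y axis) in 4 strata of fragments in the adipocyte labels (x axis), for gene-distal members and gene-end bins, with thyAD II against thyAD I on the left and Immune against both on the right. Shares for the adipocyte labels fall with depth in both sets, and the share lower in Immune is higher in the members in every stratum.

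Members inside or within 100 kb of thermogenic genes, the genes of heat-producing brown and beige fat, were shifted towards thyAD I. Of 80 such members with enough fragments, 15 (18.8%) were 2-fold or more higher in thyAD I, against 6.43% of all members, and 1 (1.25%) in thyAD II, against 6.67%. Their median log2 ratio was -0.41, and 15% lay above 0, against a median of -0.03 and 47.4% above 0 over all members. Between thyAD I and thyAD II the median TSS enrichment per nucleus was 7.16 and 6.59, and short fragments were 61.3% and 56.7%. Summed pericyte and smooth muscle markers were 94.1 and 125 FPM, endothelial markers 132 and 168, and mesothelium markers 22.5 and 36.1. Adipocyte markers, at 1037 and 945 FPM, and T cell markers, at 131 and 100, went the other way. The part of these differences in the shift was not tested. The same fragments over these genes had been looked at before the list was applied to the members, so the direction is not independent evidence. Of the 15 list genes with a member, 14 had a pooled ratio below 0, and in 8 the whole counting interval lay below 0. The sum for each gene pools every member inside it or within 100 kb, including members nearer to another gene. In the other fat cell lists the whole interval lay below 0 for 3 of 18 adipocyte identity genes and 4 of 11 lipogenesis genes. In each of the remaining lists, which held only 10 to 38 members, it did so for 0 genes. The same shares over all genes with a member are not given here, and the pooled ratio over all members was itself below 0, at -0.05. Ucp1, the uncoupling protein that makes heat, had 3 members summing to 37.0 FPM in thyAD I and 21 in thyAD II, a log2 ratio of -0.81 (-1.40 to -0.24). Ppargc1a, the co-activator that drives mitochondrial genes, had 13 members at 152 and 110 FPM, a log2 ratio of -0.48 (-0.74 to -0.21). Its relative Ppargc1b had 10 members at 103 and 64.4 FPM, a log2 ratio of -0.68 (-1.01 to -0.35). Kcnk3, a potassium channel of brown fat, had the lowest ratio among genes with 3 or more members, -0.93 (-1.47 to -0.41) over 5. Its bin chr5:30606001-30607000 held 19 fragments in thyAD I against 4 in thyAD II, a log2 ratio of -2.53 (-4.67 to -1.07).

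The remaining thermogenic genes ranged more widely. Prdm16, a transcriptional regulator of brown fat identity, had 10 members at 114 and 84.5 FPM, a log2 ratio of -0.43 (-0.73 to -0.13). Cidea, a lipid droplet protein, stood at -0.48 (-0.83 to -0.12) over 8 members and Cox7a1, a respiratory chain subunit, at -0.69 (-1.28 to -0.11) over 3. The intervals of Ebf2 (-0.22, from -0.66 to 0.22), Esrrg (-0.54, from -1.09 to 0.02) and Ppara (-0.21, from -0.45 to 0.03) reached 0. The thermogenic member with the most fragments lay near Ppara, chr15:85687001-85688000, at 26.7 FPM in thyAD I, 22.8 in thyAD II and 19.6 in Immune, against 2.22 in the other barcodes. Elovl3, a fatty acid elongase, was the 1 gene above 0, at 0.53 with an interval from -0.08 to 1.20.

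Both other fat cell lists had medians close to that of all members and pooled ratios below it. The pooled log2 ratio was -0.14 (-0.22 to -0.06) for adipocyte identity and -0.23 (-0.33 to -0.14) for lipogenesis, against -0.05 over all members and -0.43 (-0.53 to -0.33) for the thermogenic list. By gene, 15 of 18 adipocyte identity genes and 9 of 11 lipogenesis genes lay below 0. The same share over all genes with a member is not given here, so how far these counts depart from it cannot be read. With scaling by fragments in all bins both list medians were between 0.00 and 0.01, and that of all members was 0.02. Of 129 members of the adipocyte identity list 113 had enough fragments, of which 2.65% were past 2-fold towards thyAD II and 6.19% towards thyAD I, against 6.67% and 6.43% of all members, with a median of -0.06. Acsl1 had 25 members within reach, at 255.6 FPM in thyAD I, 249 in thyAD II and 171 in Immune, against 22.7 in the other barcodes. The 9 members of Pparg summed to 152, 133 and 96.2 FPM against 19.6. The 3 members of Lep, the leptin gene, stood at 44.3 and 30.1 FPM, a log2 ratio of -0.56 (-1.06 to -0.06), and the 9 of Cebpa at 126 and 125 FPM. One bin near Acsl1, chr8:46387001-46388000, held 21 fragments in thyAD I against 8, a log2 ratio of -1.75 (-3.19 to -0.57).

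The lipogenesis list, which makes fatty acids from sugar, had 82 members, 75 of them with enough fragments, of which 4% were past 2-fold towards thyAD II and 9.33% towards thyAD I, against 6.67% and 6.43% of all members, with a median of -0.05. Acly, which makes cytosolic acetyl-CoA, had 5 members at 42.5 FPM in thyAD I and 22.8 in thyAD II, a log2 ratio of -0.89 (-1.45 to -0.35). Fasn, the fatty acid synthase gene, stood at -0.46 (-0.79 to -0.13) over 10 members, and Thrsp, a lipogenic nuclear protein, at 0.30 (-0.05 to 0.66) over 8. The bins nearest to Fasn stood at 0.93 and -0.92, and those with Ccdc57 as the nearest protein-coding gene ranged from -2.38 to 0.63. The Thrsp members had Kctd21, Kctd14 or Ints4 as the nearest protein-coding gene. The most open bin lay inside Acaca, the acetyl-CoA carboxylase gene (chr11:84179001-84180000), at 65.0, 50.7 and 41.0 FPM, against 29.6 in the other barcodes.

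Members near genes of other cell types were mostly higher in labelled nuclei than in the other barcodes, from 50% of the T cell list to 93.5% of the B cell list by the 2-fold rule, but the share over all members was 81.7%. The T cell list had 38 members, 33 with enough fragments, 0 past 2-fold towards thyAD II and 3 (9.09%) towards thyAD I, against 6.67% and 6.43% of all members, with a median of 0.02. Rag1 and Rag2, which cut antigen receptor genes in lymphocytes, had members within 100 kb, all with Traf6 or Prr5l as the nearest protein-coding gene. Bins open only in the other barcodes could not become members, so these levels do not show where the Rag genes are open or closed. The 3 members near Rag1 summed to 44.3 FPM in thyAD I, 39.3 in thyAD II and 24.9 in Immune, against 3.04 in the T cell marker-rich other barcodes, and the most open of them lay inside the neighbouring gene Prr5l. Tcf7, a transcription factor of T cells, showed the opposite order, with 6 members at 35.2, 36.5 and 73.0 FPM and 87.6 in the other barcodes.

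The B cell list had 31 members, 29 with enough fragments, of which 3.45% were past 2-fold towards thyAD II and 10.3% towards thyAD I, against 6.67% and 6.43% of all members, with a median of -0.10. Of its 5 genes with a member 4 had a pooled ratio above 0, while Ebf1, with 19 of the 31 members, had one of -0.21 (-0.43 to 0.02). Pax5, a transcription factor of B cells, had 6 members with 82 fragments in thyAD I and 148 in thyAD II, 49.8 and 67.6 FPM, a log2 ratio of 0.44 (0.04 to 0.85). The Ebf1 members summed to 188 FPM in thyAD I, 163 in thyAD II, 62.3 in Immune and 15.9 in the other barcodes. Inside that gene, chr11:44758001-44759000 held 3 fragments in thyAD I against 22 in thyAD II, and its log2 ratio was 2.27 (0.73 to 4.85). The endothelial list had 33 members, 29 with enough fragments, of which 6.90% were past 2-fold towards thyAD II, close to the 6.67% of all members, and 0 towards thyAD I. They included chr11:106678001-106679000 inside Pecam1, an adhesion protein of vessels, with 29 fragments against 9 and a log2 ratio of 1.22 (0.16 to 2.54). Endothelial markers over gene bodies were 168 FPM in thyAD II and 132 in thyAD I, and their part in that bin was not tested. The remaining lists were small. Of the members with enough fragments, 2 of 10 in the mesothelium list (20%) were past 2-fold towards thyAD II, against 6.67% of all members, and 2 of 21 in the mural list (9.52%) and 1 of 11 in the fibroblast list (9.09%) towards thyAD I, against 6.43%. The mural and thymic epithelium (22) lists had 1 each towards thyAD II, the macrophage (15) and Schwann (10) lists had none in either direction, and the medians of these 6 lists lay between -0.09 and 0.08.

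**Figure D5:**
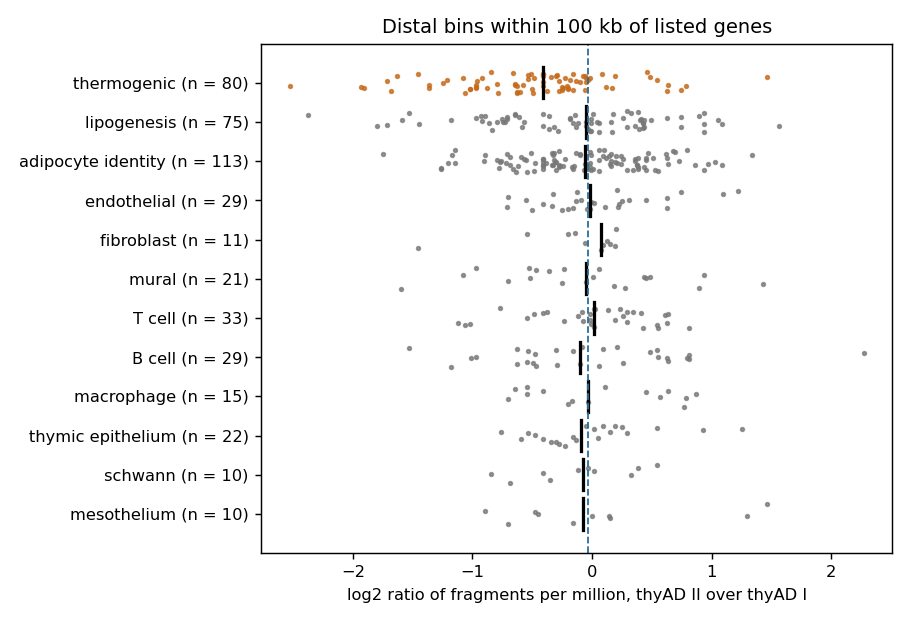
Log2 ratio of FPM, thyAD II over thyAD I (x axis), for each member assigned to a gene list (points) by list (rows), with a bar at each list median and a dashed line at the median of all members. The thermogenic members sit furthest to the thyAD I side, with a median of -0.41 against -0.03 over all members.

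With 0.5 fragments added to each count, Immune was lower than the adipocyte labels at more members than it was higher, and a larger added count turned this order. Of 13705 members, 4900 (35.8%) were 2-fold or more lower in Immune, against 24.9% of all bins, and 406 (2.96%) were higher, against 4.23% of all bins. The median log2 ratio was -0.63 for the members and -0.15 near gene ends. The choice of members by pooled counts, 12.8% of them from Immune, leaves out bins open in Immune alone, so the rule can lower the share of higher members. The sign of that median depended on the small count added: with 5 fragments in place of 0.5 it was 0.50, with 17% of members higher and 0.161% lower in Immune, because 5 fragments are worth 8.91 FPM in Immune and 1.30 in the adipocyte labels. In 1394 members (10.2%) Immune had 0 fragments, which with a floor of 3 fragments allows up to 5.34 FPM (the upper end of the exact 95% interval for 0 fragments is 6.57 FPM). How many of all bins had 0 Immune fragments is not given here, so that share is not read as particular to the members.

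The 10 members named as lower in Immune were open in both adipocyte labels and nearly closed in the other barcodes. The bin chr12:50634001-50635000 inside Prkd1, a diacylglycerol-responsive kinase gene, held 35 and 51 fragments in thyAD I and thyAD II and 0 in Immune, so with the floor of 3 fragments the adipocyte labels were at least 4.19-fold higher. Bins near Atp2b4, a plasma membrane calcium pump gene (31, 47 and 0 fragments), and near Foxo6, a forkhead factor gene (39, 28 and 0), were at least 3.8-fold and 3.27-fold higher. The Ppargc1a bin chr5:51868001-51869000, 247 kb inside the gene model, held 49 and 46 fragments against 1 in Immune, a log2 ratio of -3.22 (-9.12 to -1.28). The other 6 lay inside Stk10 and Met and near Hint1, Tecrl, Tmem30b and Gadd45g, each with 0 Immune fragments. Met encodes the hepatocyte growth factor receptor. These 10 stood between 0.944 and 2.22 FPM in the other barcodes.

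The 10 members named as higher in Immune were all open in the other barcodes too. The bin chr6:8485001-8486000, 15.7 kb from a gene end near Glcci1, a gene induced by glucocorticoids in thymocytes, held 24 Immune fragments (42.8 FPM) against 5 in thyAD I and 3 in thyAD II, a log2 ratio of 4.30 (3.16 to 5.72), and stood at 57.3 FPM in the other barcodes. A bin inside Tcf7 (chr11:52275001-52276000) held 12 against 6 and 2, a log2 ratio of 3.33 (1.95 to 4.85), and stood at 44.7 FPM. A bin inside Ccnd3, the cyclin that drives thymocyte expansion, held 18 against 8 and 4 and stood at 47.1 FPM. The deepest was chr3:5860001-5861000, 109 kb from any gene end with Pex2 as the nearest protein-coding gene, with 93 against 81 and 39, a log2 ratio of 2.41 (2.0 to 2.81). It stood at 176 FPM in the other barcodes and 120 in the small barcodes. The rest lay inside Ddx54 (17 against 6 and 3) and Acoxl (14 against 7 and 0) and near Trim33, Macir, Naif1 and Spsb1, with 13 to 15 Immune fragments each. Over all 406 members higher in Immune the median level was 4.86 FPM in thyAD I, 5.02 in thyAD II, 12.5 in Immune and 9.58 in the other barcodes, whereas over the 4900 lower in Immune it was 7.89, 7.76, 1.78 and 0.805.

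Members past 2-fold were found for every cluster. Cluster 1, of thyAD I, had 1393 members (10.2%) past 2-fold above the remaining labelled nuclei, against 6.82% of all bins. Cluster 3, also of thyAD I, had 1220 (8.90%) against 7.51%, cluster 4 of thyAD II had 1197 (8.73%) against 5.84%, and cluster 0 of thyAD II had 806 (5.88%) against 4.82%. The order of the clusters changed with the setting: scaled by fragments in all bins, cluster 4 was at 10.6%, cluster 1 at 9.65% and cluster 3 at 5.28%, and with 5 fragments added cluster 3 was highest at 43.2%. The clusters were made on these nuclei, so the counts describe them and test nothing. Named members of cluster 1 lay inside Nav2 and inside Cdh2, an adhesion molecule gene, with log2 ratios of 3.44 and 3.27. Those of cluster 3 lay near Frmd8, inside Slc24a3 and near Ntm (2.46, 2.53 and 2.29). Those of cluster 0 lay inside Greb1l and Lhfpl2 and near Znhit3 (3.09, 2.69 and 2.80), and those of cluster 4 inside Ephb2, near Trib2 and inside Lgr4 (2.59, 2.59 and 2.53). The Nav2 bin held 20 fragments in cluster 1 and 3 in cluster 3, while the Slc24a3 bin held 9 and 10 and was open in both clusters of thyAD I. Cluster 2 is the Immune label, and its named members were those near or inside Glcci1, Ddx54 and Acoxl.

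RNA of the nearest protein-coding genes was compared for members past 2-fold in either direction, with no test of the difference. It came from the 4-month male library, in which 84 nuclei were labelled Ad I (52241 UMIs) and 281 Ad II (482731 UMIs). Those labels share only their numerals with thyAD I and thyAD II, and no labelled barcodes were shared (0). Over 2448 nearest genes with 10 or more UMIs the median log2 ratio of Ad II over Ad I was -0.01. It was -0.25 over the 386 genes nearest to members higher in thyAD I and -0.13 over the 385 nearest to members higher in thyAD II. Among the former 33.7% of genes were 2-fold or more higher in Ad I, against 25.9% of all nearest genes, and among the latter 28.8% were higher in Ad II, against 28.2%, and 27.8% in Ad I. The middle 50% of genes in both sets spanned both signs. For genes of gene-end bins the same medians were -0.04, -0.23 and 0.05.

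Some single genes went with their bin. Slc24a3 had 52 UMIs in Ad I and 2 in Ad II, a log2 ratio of -7.60 (-10.99 to -5.98), Adra1a had 21 and 2 (-6.31, from -9.74 to -4.57), and Kcnk3 had 12 and 3 (-5.04, from -7.67 to -3.32). On the thyAD II side Mcf2l had 4 UMIs in Ad I and 275 in Ad II, a ratio of 2.73 (1.52 to 4.78). Pecam1, taken from the endothelial list and not among the members named for thyAD II, had 9 and 481 (2.46, from 1.6 to 3.67). Ad II here pooled all nuclei with an Ad II label. Among fat cell genes, RNA of Acsl1 (-5.02), Acaca (-4.62) and Ppara (-6.44) was lower in Ad II, but their members differed little between the labels. Over those members the log2 ratios of thyAD II over thyAD I were -0.04 (-0.22 to 0.15), -0.22 (-0.46 to 0.02) and -0.21 (-0.45 to 0.03). Ppargc1a had 2 and 2 UMIs. Others went the opposite way or could not be read. Dock9, whose bin was higher in thyAD I, had 13 and 651 UMIs, a ratio of 2.38 (1.65 to 3.36), while Lhfpl2 had 2 and 1 UMIs and Cdca2 had 0 in both. Also named for thyAD II, Ano10 had 3 and 9 UMIs (-1.77, from -3.63 to 0.90) and Scfd2 3 and 24 (-0.40, from -1.93 to 2.17). Slc38a1, Igsf21, Med16, Cdrt4 and Slc13a5 had 0 or 1 UMIs in each label. On the thyAD I side Stt3b went with its bin (-1.62, from -2.52 to -0.56), and the intervals of Nav2, Idh2, Parn and Adamtsl1 spanned 0.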

How the data were processed

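Chromatin was read from a deposited list of fragments, each with a position, a barcode and a count of read pairs. Per the file headers it was made with cellranger-arc-2.0.2 on the mm10 reference, and the submitters' processing notes name Cell Ranger ARC 2.0.2 and Seurat 5.1.0. Labels and clusters came from the authors' deposited metadata table, whose copy used here ends inside a row. Its 317 complete rows of 318 begun were used, and later nuclei are not analysed here. The table's ATAC column holds counts per nucleus, per the file headers, and its TSS enrichment is a ratio the authors deposited. The first entered no result, and the second is printed only as a median beside the thermogenic list. The thymic RNA matrix holds raw UMI counts as deposited. The RNA of the joint assay was not used here.

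Each fragment was counted once, in the 1 kb bin of its midpoint. The file held 101060606 fragments in 417518 barcodes, of which 4397902 (4.35%) belonged to labelled nuclei. Gene ends and promoter windows came from RefSeq tables of GRCm38.p6, the same build as mm10. No genome was used, so the bins' own sequences are not shown. Ratios are log2 of FPM (fragments per 1000000) after adding 0.5 fragments to each sum. Their 95% intervals are exact (Clopper-Pearson) for the split of counts, and 2-fold marks a bin as past the fold. Fragments amplified by PCR are not independent beyond the removal of duplicates, and intervals cover counting error only. The "at least" folds put 3 fragments in place of 0.

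The named bins are the 6 members with the most fragments, the 10 in each direction for thyAD II against thyAD I and for Immune whose interval bound nearest 0 is largest (bins within 5 kb of each other counted once), 3 per cluster, 2 per gene list and the longest run. Some items that this rule and the ranking of genes name are not reported here. A bin counts to a gene list when it lies inside or within 100 kb of a list gene, and 133 of 136 list genes matched. Orientation of the promoter windows was checked on 1668 of 1668 overlapping windows on opposite strands. The members and lists were chosen with earlier results of these data known. The ratio script was tested on simulated data. Alternatives were other fragment minimums, distances, pseudocounts and scalings, equal weight per nucleus, and leaving out bins high in barcodes with fewer than 100 fragments. The comparison with other barcodes (4782 with 5000 or more fragments), the depth strata, the genes with the most members, the printed promoter windows, and the alternatives without promoter windows or inside genes were added after seeing the data. Tools were Python 3.11.15, numpy 2.4.6, pandas 2.3.3, scipy 1.17.1 and matplotlib 3.10.9.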

Additional observations from a re-analysis of the deposited data

How the results depend on the processing

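With 1 library no replicate could be left out, and no paired analysis was possible because the labels compared come from a single pool. With a minimum of 50 fragments in place of 20 there were 2955 members, of which 0.926% were higher in thyAD II, 2.26% in thyAD I and 1.02% in Immune. With a minimum of 10 there were 32028, with 12%, 9.95% and 8.50%, and the median log2 ratio of Immune was -0.45 in place of -0.63. Beyond 20 kb from gene ends 5438 members were left, and outside all genes 4518. Scaling by fragments in all bins gave 4.92% higher in Immune and a median of -0.43, and 5.28% for cluster 3. Without members high in barcodes with fewer than 100 fragments, 1.29% were higher in Immune and the median was -0.76. Adding 5 fragments in place of 0.5 gave 1.65% higher in thyAD II, 3.8% in thyAD I, 17% in Immune and 0.161% lower in Immune, with an Immune median of 0.50, and 43.2% and 22.3% for clusters 3 and 4. That setting adds more FPM to the smaller group. The median of thyAD II over thyAD I stayed near 0, between -0.11 and 0.03, but its sign was not stable. It was above 0 with a minimum of 10, with short fragments only and under both scalings. The members named for the labels were chosen as the most extreme, and adding 5 fragments was not run on them. The mural list's median was 0.91 when assigned by the nearest gene of any type, and the cause was not tested. Of 230 values under alternatives, 206 lay within 1.5 times a main share or count, within 0.1 (log2) of a median, within the spread of a gene list, or within a named bin's own interval. That tally does not measure stability. A minimum of fragments per nucleus removed no nucleus, since the shallowest held 3610, so its values only repeat the main ones. Named bins gave 80 of the 206, each judged against its own counting interval. Their largest shift was 0.203 (log2) with scaling by fragments in all bins and 1.04 with equal weight per nucleus.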

Other observations

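The members with the largest excess in labelled nuclei over the other barcodes were ranked after the data were seen by the interval bound nearest 0, and 4 of them are given here as a description, since the labelled fragments chose them. A bin inside Lama1, a basement membrane laminin gene, held 3 fragments in thyAD I, 21 in thyAD II and 2 in Immune and stood at 0.125 FPM in the other barcodes, a log2 ratio of 5.51 (4.43 to 6.84). A bin near Tead1, the DNA-binding partner of YAP, held 20, 50 and 4 fragments against 0.652 FPM (4.68, from 4.14 to 5.25). A bin near Ebf1 held 18, 29 and 2 against 0.416 FPM (4.73, from 4.06 to 5.45), and a bin inside Runx1t1, a co-repressor gene, held 9, 28 and 3 against 0.319 FPM (4.82, from 4.06 to 5.64). Each of these 4 bins held more fragments in thyAD II than in thyAD I. These counts are not scaled to the summed totals, which were 2189613 fragments for thyAD II and 1646902 for thyAD I.

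Members were unevenly spread over chromosomes. Chromosome 11 held the most for its length, 7.98 per Mb with 25.3 genes per Mb, but it also held the most gene-end bins (17.8 per Mb), and members were 31% of its bins against 36.8% over all chromosomes. The fewest for its length were on chromosome 14, 3.89 per Mb with 18.7 genes per Mb.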
